A study of Homo sapiens with 18 samples.

Results

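The HOX genes of IMR90 human lung fibroblasts were followed through irradiation-induced senescence and through treatment with MDM2 inhibitors. Members were taken by name: every row of the deposited count table whose symbol was HOX, then A, B, C or D, then digits only. This gave 39 of the 60623 genes in the table, which are all genes of the HOXA, HOXB, HOXC and HOXD clusters, without their antisense and other noncoding transcripts. Of the 39, 19 passed the filter on low counts and were tested, among them HOXA2 to HOXA7, HOXB2 to HOXB9, HOXC4, HOXC6, HOXC8 and HOXC9. The other 20 stayed below it.

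Poly(A) RNA was sequenced in 6 groups of 3 libraries, all from wild type IMR90, a single line of fetal lung fibroblasts. Proliferating cells (Prolif) and cells made senescent by ionizing radiation (IR) each received the solvent DMSO, RG7388 or HDM201. Both compounds bind MDM2, which normally sends p53 for degradation, and so raise p53 activity. Treatment of irradiated cells began on day 4 and lasted 7 days, with RNA taken on day 11. For proliferating cells the labels give neither treatment length nor collection day, so comparisons between the states may also differ in these. No group carried a transgene or a deletion. The labels do not say whether the 3 libraries of a group came from separate irradiations or cultures, so every p-value measures only the spread between these libraries, which may be technical.

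HOX proteins are homeodomain transcription factors that give cells their position along the head-to-tail axis of the embryo. Each cluster is read in order along the chromosome. Low-numbered genes at one end are expressed toward the head, and high-numbered genes at the other end are expressed toward the tail and in the distal limbs. Adult fibroblasts keep the HOX pattern of their site of origin in culture, so the set of active HOX genes acts as an address. HOX proteins bind DNA with TALE partners (PBX, MEIS, PKNOX), their loci are opened by retinoic acid, and Polycomb and trithorax complexes keep them silent or active.

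The libraries held 21609198 to 66647700 counts. Fibroblast identity was checked first. All 14 fibroblast markers were present in every group, with COL1A1, a fibrillar collagen chain, at 5241 to 27860 CPM (counts scaled to library size by TMM) and VIM, vimentin, at 2736 to 7223 CPM. The summed fibroblast markers were 50700 to 73040 CPM in proliferating and 23230 to 32710 CPM in irradiated libraries. Summed epithelial markers were 277 to 360 CPM in proliferating and 160 to 177 CPM in irradiated DMSO libraries. In irradiated libraries with compound they were 291 to 428 CPM. The largest part was KRT18, with means of 88.4 CPM in irradiated DMSO cells, 216.4 CPM with RG7388 and 195.3 CPM with HDM201. Of 6 epithelial markers tested, 3 were called higher and 0 lower in irradiated cells with each compound. In proliferating cells 1 of the 6 was called higher with each compound. Irradiation in DMSO gave 1 higher and 3 lower. The epithelial defining markers EPCAM and CDH1 were at 1.32 CPM or less and 0.306 CPM or less. Summed leukocyte markers were 1.75 to 3.09 CPM in proliferating libraries, 3.825 to 4.67 CPM in irradiated DMSO libraries and 2.36 to 2.98 CPM in irradiated libraries with compound. PTPRC, which defines leukocytes, was at 0.395 CPM or less, while the macrophage markers CD68 (0.820 to 2.17 CPM, adjusted p = 6.93e-05) and CD14 (0.106 to 0.911 CPM, adjusted p = 0.000431) rose with irradiation in DMSO. Summed endothelial markers were 82.0 to 93.9 CPM in proliferating and 113.6 to 138.7 CPM in irradiated libraries. Most of that sum was TEK, which rose from 85.1 to 124.6 CPM (adjusted p = 1.2e-05), with the defining markers PECAM1 at 0.350 CPM or less and CDH5 at 0.191 CPM or less. The part of these marker shifts in the HOX results was not tested. Irradiated DMSO replicate 1 and proliferating HDM201 replicate 3 had the lowest mean correlations to their group, 0.979 and 0.977. They are called the libraries that stood apart, and results that rest on them are given without them. The step to the next was small, with irradiated HDM201 replicates 2 and 1 at 0.980 and 0.981. In bulk RNA, fewer cells of a type and less RNA per cell cannot be told apart.

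The address read from these libraries lay in the front and middle of the HOXB and HOXA clusters. Levels are compared between genes on the deposited FPKM scale, which corrects for length. HOXB2, a hindbrain patterning gene, was the most abundant member, with a median of 42.6 FPKM over the 18 libraries. HOXB5, which acts in branching airways and in enteric neurons, was at 33.6 FPKM, and HOXB6 at 33.4 FPKM. HOXB3 stood at 25.5 FPKM and HOXB7 at 17.8 FPKM. HOXA5, the member best known for lung development, led the HOXA cluster at 10.0 FPKM, before HOXB4, a gene known from blood stem cells, at 7.59 FPKM. Below these came HOXA4 at 4.42, HOXA3 at 3.48, HOXB8 at 3.20, HOXC6 at 1.42, HOXA7 at 1.37, HOXC8 at 1.27 and HOXA2 at 1.13 FPKM. HOXC4 (0.759), HOXA6 (0.497) and HOXC9 (0.319) had medians under 1 FPKM. Several neighbours in this order were not separated. HOXB5 exceeded HOXB6 in 8 of 18 libraries, HOXA3 exceeded HOXB8 in 9, HOXC6 exceeded HOXA7 in 10 and HOXC8 exceeded HOXA2 in 9. Other steps were clear, since HOXB6 exceeded HOXB3, HOXB4 exceeded HOXA4 and HOXB8 exceeded HOXC6 in 18 of 18.

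**Figure D1:**
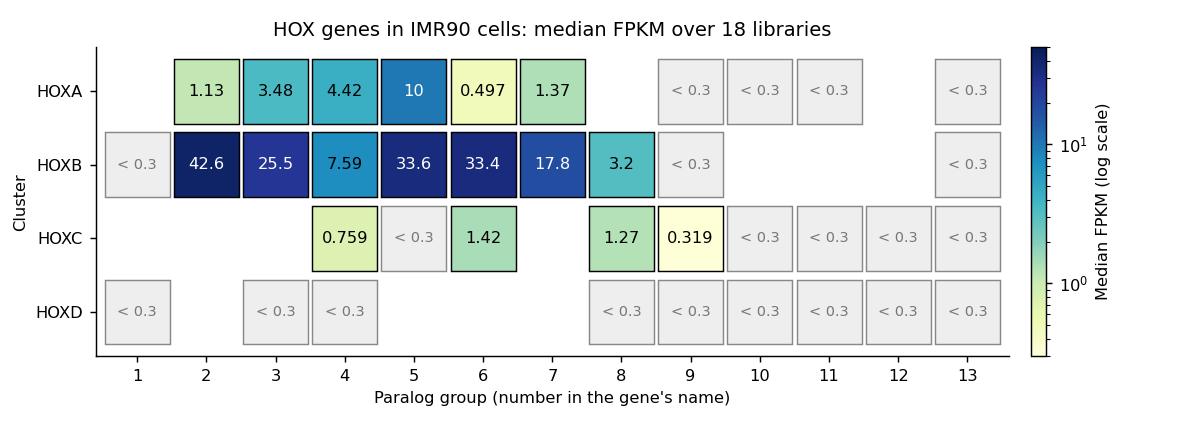
Median level (FPKM over 18 libraries) of the HOX genes reported, with clusters as rows and paralog groups as columns, and grey boxes for members under 0.3 FPKM. Expression sits in the front and middle of HOXB and HOXA, falls to about 1 FPKM in HOXC and is below the scale in HOXD.

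Cluster totals gave the same picture per group. HOXB genes summed to 322.8 ± 19.6 CPM (mean ± SD, n = 3) in proliferating DMSO cells, HOXA genes to 45.4 ± 1.37 CPM, HOXC genes to 6.24 ± 0.641 CPM and HOXD genes to 0.0872 CPM. The HOXB cluster thus held 86.2% of HOX counts. All 9 HOXD genes were below the filter, as were HOXA9 to HOXA13, HOXB1, HOXB13, HOXC5 and HOXC10 to HOXC13. These 20 members together held 4 to 78 counts per library, or 0.159 to 1.73 CPM when scaled by library totals, without TMM. HOXA9, which in other tissues marks posterior identity and blood progenitors, had the most, 113 counts over the 18 libraries and 1 to 23 in each. HOXC5 had 83 counts and HOXA10, a uterine and posterior patterning gene, 67. HOXB1 had 3 counts, HOXC12 and HOXD11 had 4 each and HOXD9 had 1. The highest library, proliferating HDM201 replicate 3, drew its 78 counts mostly from HOXC13 (19), HOXC11 (15) and HOXD4 (10), and is among those that stood apart. On the same scale irradiated DMSO libraries stood at 1.56, 1.25 and 1.415, with counts in 11 to 12 of these members, and proliferating DMSO libraries at 1.035, 0.637 and 0.361, with counts in 4 to 9. The groups did not overlap. Irradiated libraries stood at 0.563, 0.724 and 0.497 with RG7388 and at 0.871, 0.408 and 0.555 with HDM201. These sums were not tested, and each gene had few counts.

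Irradiation was examined first in DMSO, to see how the positional code behaved when cells became senescent. The genes that made up the pattern before irradiation also made it up afterwards, and most changes were under 2-fold. HOXA3, HOXB4 and HOXB2, all of the head end, fell. HOXB8 and HOXC8, at the tail end of the expressed range, rose. Of the genes between them, only HOXB6 passed the test. In all, 9 of 19 members (47.4%) passed the test, against 51.6% of all genes tested, so HOX genes were not called more often than other genes. Of the 19, 3 were higher and 6 lower, beside 26.3% and 25.3% of all genes. The groups of libraries did not overlap for 10 of 19 members and for 61.2% of all genes. The median absolute log2 change was 0.325 for HOX genes and 0.557 for all genes. DESeq2 called 7, and limma on log2 FPKM called 6 of the 15 it could test, 4 of them higher. Of all genes that limma called, 68.9% were higher. With libraries scaled by their totals the median of all genes moved from 0.053 to 0.342 on the log2 scale, and the 8 HOX calls then split into 5 higher and 3 lower. Directions are therefore given relative to TMM scaling, and genes whose call depends on it are named.

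HOXA3, needed for the thymus, parathyroid and neck, fell most among the members called. It was at 13.4, 13.7 and 14.1 CPM in proliferating DMSO libraries and at 3.61, 6.585 and 8.05 CPM after irradiation. The lowest of these came from replicate 1, which stood apart, yet all 3 irradiated libraries lay below all 3 proliferating ones. The log2 change was -1.18 ± 0.18 (SE), a 2.27-fold fall, with adjusted p = 1.02e-05, and it stayed between -1.45 and -0.93 with each library left out. HOXA2, which patterns the hindbrain and the middle ear, was at 3.49, 3.45 and 3.23 CPM and then at 1.72, 2.26 and 1.99 CPM. These groups did not overlap either, and the log2 change was -0.77 ± 0.29 (adjusted p = 0.0320). With only a few CPM behind it, the HOXA2 call was lost without proliferating replicate 1 (adjusted p = 0.0753), 2 (0.0642) or 3 (0.0539), without irradiated replicate 1 (0.0837) or 3 (0.0621), by DESeq2 (0.0627) and with library totals (log2 change -0.48, adjusted p = 0.17).

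The head end of HOXB moved the same way. HOXB4 was at 23.0, 22.5 and 19.4 CPM in proliferating cells and at 11.0, 13.5 and 14.9 CPM in irradiated cells. The groups were well apart, with a log2 change of -0.72 ± 0.13 and adjusted p = 9.08e-05, and the call held under each alternative run except a 2-fold minimum. HOXB2 was at 69.7, 79.1 and 64.9 CPM and then at 51.4, 45.0 and 51.0 CPM, again without overlap. Its log2 change was -0.54 ± 0.11 (adjusted p = 0.000177), and of the alternatives run only limma on log2 FPKM and a 2-fold minimum did not call it. HOXB3, which acts with HOXA3 in the neck and hindbrain, was at 85.1, 89.9 and 90.9 CPM and then at 56.1, 71.2 and 80.8 CPM. The change of -0.35 ± 0.11 (adjusted p = 0.0119) leaned on irradiated replicate 1, the lowest library. Without it the value was -0.25 with adjusted p = 0.0640, and with library totals it was -0.07.

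**Figure D2:**
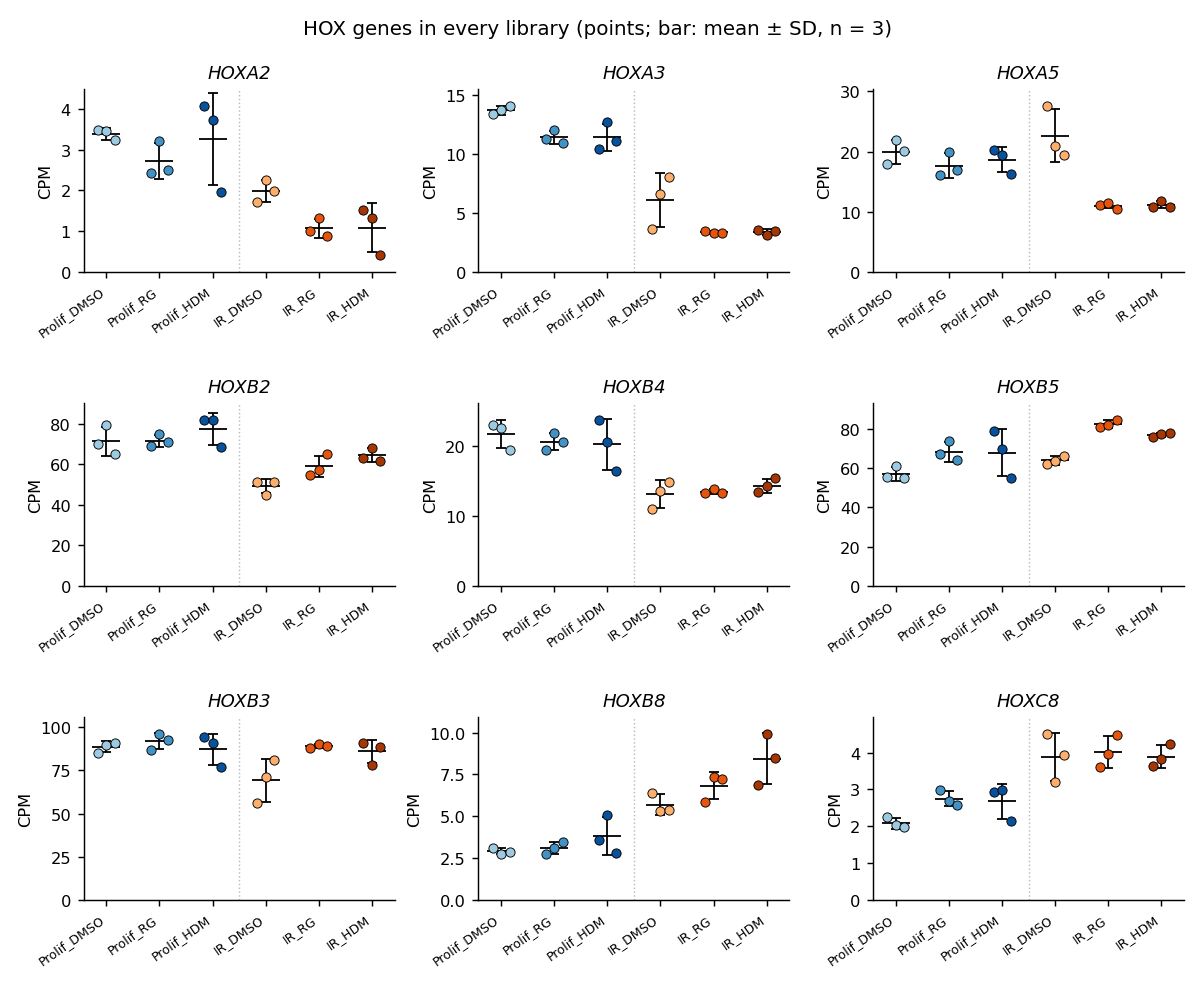
Level (TMM-scaled CPM) of 9 HOX genes in each of the 18 libraries, with the mean and SD of each group of 3 (RG, RG7388; HDM, HDM201). HOXA3 and HOXB4 lie lower in every irradiated library than in any proliferating library, HOXB8 and HOXC8 lie higher, and HOXA5 is low only in irradiated cells that had a compound.

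The middle of the clusters, paralog groups 5 to 7, held 7 tested members, of which 1 was called. That was HOXB6, expressed in lung mesenchyme and limb, at 55.9, 66.6 and 55.3 CPM and then at 53.9, 44.1 and 46.3 CPM. Its groups were separated by little, 55.3 against 53.9 CPM. The log2 change of -0.30 ± 0.11 (adjusted p = 0.0276) was lost without proliferating replicate 2 (0.168) or irradiated replicate 2 (0.112) or 3 (0.0805), and was -0.01 with library totals. HOXB6 also shares 16.6% of its exon bases with HOXB3 and 16.3% with HOXB-AS3, so its counts are uncertain. HOXB5 was at 55.2, 60.9 and 54.8 CPM and then at 61.8, 63.7 and 66.2 CPM. All irradiated libraries were above all proliferating ones, but the log2 change of 0.17 ± 0.11 did not pass (adjusted p = 0.206). With library totals it was 0.46 (adjusted p = 9.5e-05). HOXA5 was at 17.9, 21.9 and 20.0 CPM and then at 27.6, 21.0 and 19.4 CPM, with the high value in the replicate that stood apart. The groups overlapped and the log2 change was 0.19 ± 0.13 (adjusted p = 0.246), or 0.49 (adjusted p = 0.00303) with library totals and 0.41 (adjusted p = 0.00518) by limma on log2 FPKM. Without irradiated DMSO replicate 1 it was 0.00 (adjusted p = 0.988). HOXB7, at 20.9 to 23.2 CPM before and 18.4 to 22.2 CPM after, gave -0.08 ± 0.11.

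At the tail end of the expressed range, paralog groups 8 and 9, 2 of 4 tested members were called, HOXB8 and HOXC8, both higher. HOXC9 gave 0.04 (adjusted p = 0.959) and HOXB9 1.32 (adjusted p = 0.191). HOXB8, known for its role in blood progenitors and the spinal cord, was at 3.10, 2.76 and 2.84 CPM in proliferating cells and at 6.42, 5.29 and 5.36 CPM in irradiated cells. No irradiated library came near the proliferating ones, and the log2 change was 0.96 ± 0.19, or 1.95-fold, with adjusted p = 0.000192. HOXC8, which sets motor neuron identity at forelimb level and patterns the thorax, was at 2.26, 2.03 and 1.97 CPM and then at 4.51, 3.21 and 3.93 CPM. Again the groups were apart, with a log2 change of 0.89 ± 0.18 (adjusted p = 0.000239). HOXB8 and HOXC8 share no exon bases with another annotated gene, and both calls held under each alternative run except a 2-fold minimum. HOXC4 belongs to the head end of its cluster, where it shares 17.5% of its exon bases with HOXC6, and it also went up. It was at 1.17, 0.948 and 1.31 CPM and then at 1.59, 1.54 and 1.94 CPM. Its groups did not overlap, but the change of 0.55 ± 0.22 (adjusted p = 0.0418) rested on few counts. It was lost without proliferating replicate 1 (0.0910) or 2 (0.162) or irradiated replicate 1 (0.0585), 2 (0.0622) or 3 (0.184), and by DESeq2 (0.0904).

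HOXA4, HOXA6, HOXA7, HOXC6 and HOXC9 did not pass. HOXA4 went from 4.96, 3.45 and 3.14 CPM to 3.89, 2.58 and 2.83 CPM, a log2 change of -0.33 ± 0.23 (adjusted p = 0.242), and passed only without both libraries that stood apart (-0.56, adjusted p = 0.0346). HOXA6, HOXA7, HOXC6 and HOXC9 had log2 changes between -0.30 and 0.04. Grouped by place along the cluster, 5 of 8 members of paralog groups 1 to 4 were called lower and 1 higher, with a median log2 change of -0.444. Groups 5 to 7 had 1 of 7 lower and a median of -0.077, and groups 8 and 9 had 2 of 4 higher and a median of 0.928. The last median includes HOXB9, which passed the filter on low counts through the irradiated DMSO libraries. This grouping was made with the values known and is a description.

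**Figure D3:**
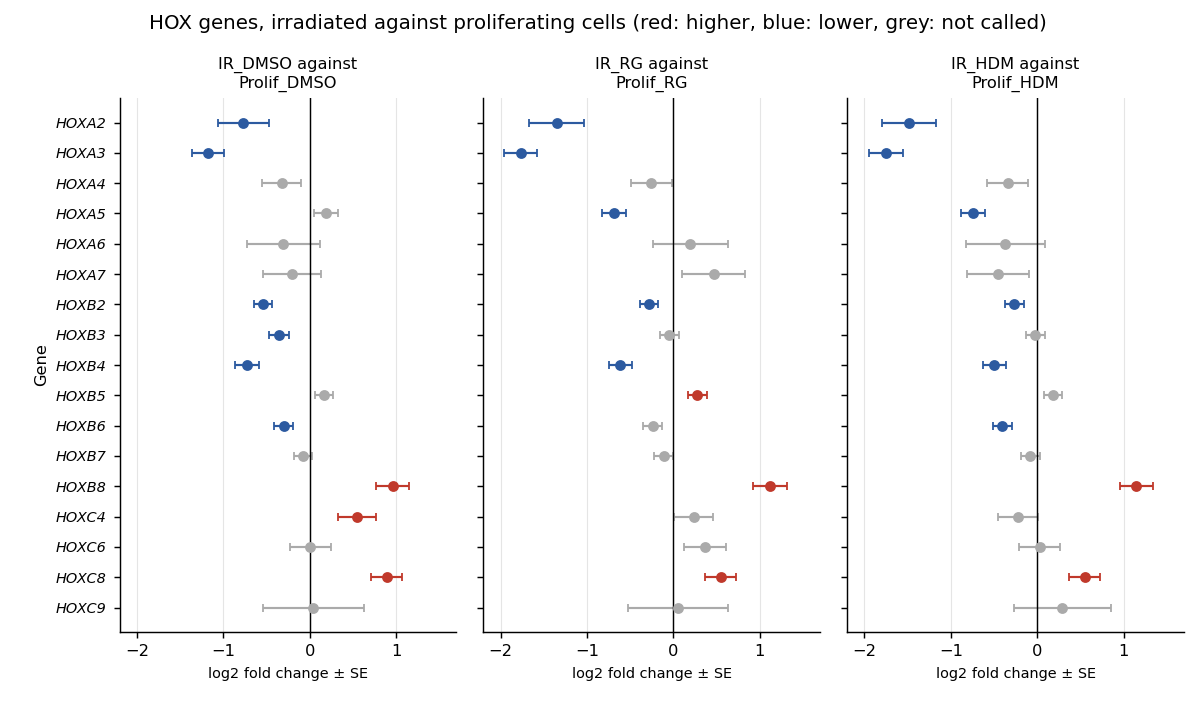
Log2 change with irradiation (± SE) for 17 of the tested HOX genes in the DMSO, RG7388 and HDM201 pairs of groups, ordered by cluster and paralog group; HOXB9 is left out because 1 group had no counts. HOXA2, HOXA3, HOXB2 and HOXB4 lie below 0 and HOXB8 and HOXC8 above 0 in all 3 pairs.

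The same comparison could be made in RG7388 and in HDM201, with libraries that none of the 3 pairs share. In RG7388, 8 of 19 HOX genes passed, against 44.0% of all genes, with 3 higher (21.3% of all genes) and 5 lower (22.8%). In HDM201, 8 of 19 passed, against 46.5%, with 2 higher (22.7%) and 6 lower (23.8%). HOXA2, HOXA3, HOXB2 and HOXB4 were called lower and HOXB8 and HOXC8 higher in all 3 pairs. These 6 members are 31.6% of those tested, beside 31.2% of all genes called with 1 sign in all 3 pairs, a share close to that of the average gene.

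HOXA3 changed by -1.77 ± 0.19 in RG7388 (adjusted p = 8.86e-08) and by -1.75 ± 0.20 in HDM201 (adjusted p = 1.26e-07) on the log2 scale. HOXB8 changed by 1.12 ± 0.20 (adjusted p = 5.70e-05) and by 1.15 ± 0.19 (adjusted p = 2.96e-05). HOXB4 changed by -0.61 (adjusted p = 0.000718) and by -0.50 (adjusted p = 0.00431), and HOXA2 by -1.35 (adjusted p = 0.00137) and by -1.49 (adjusted p = 0.000491). These 4 kept their calls with any library left out. HOXC8 and HOXB2 were less firm. The HOXC8 change of 0.55 in RG7388 (adjusted p = 0.0175) was lost without proliferating RG7388 replicate 2 (0.0544) or 3 (0.0739) or irradiated RG7388 replicate 3 (0.0824). In HDM201 the HOXC8 change of 0.55 (adjusted p = 0.0164) fell to 0.36 (adjusted p = 0.115) without proliferating HDM201 replicate 3, which stood apart, and was also lost without irradiated HDM201 replicate 3 (0.0759). HOXB2 changed by -0.28 (adjusted p = 0.0351) in RG7388 and was not called without proliferating RG7388 replicate 2 (0.122) or 3 (0.0758) or irradiated RG7388 replicate 1 (0.131) or 2 (0.0940). In HDM201 HOXB2 changed by -0.26 (adjusted p = 0.0438), and the call was lost without proliferating HDM201 replicate 1 (0.152) or 2 (0.17) or irradiated HDM201 replicate 1 (0.0941) or 3 (0.115).

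HOXA5 was called lower with irradiation in RG7388 (-0.68 ± 0.14, adjusted p = 0.000294) and in HDM201 (-0.74 ± 0.14, adjusted p = 0.000115), where the DMSO pair gave 0.19, or 0.00 without irradiated DMSO replicate 1. The difference itself was tested as an interaction of compound and state, given after the compounds. HOXB6 was called lower in HDM201 (-0.41, adjusted p = 0.00458). HOXB5 was called higher in RG7388 (0.28, adjusted p = 0.0421), but not without proliferating RG7388 replicate 1 (0.141) or 3 (0.168) or irradiated RG7388 replicate 1 (0.122), 2 (0.132) or 3 (0.1204).

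Sequence before the start was available for some members whose levels moved together or apart. RefSeq windows (GRCh38.p14) matched 20 of the 39 HOX genes, with 27 windows in all. None matched HOXA5, HOXB2 to HOXB9, HOXC6, HOXC8 or HOXC9. Many windows belong to members below the filter on low counts. Shares over the windows therefore do not describe the members that changed. Shown here are the 250 bases before the start of HOXA2 and HOXA3, neighbours on chromosome 7 that both fell, and of HOXC4 on chromosome 12, which was called higher although its paralog HOXB4 fell. HOXA2 (chr7:27102684-27102933, minus strand) and HOXC4 (chr12:54016638-54016887, plus strand, the window of HOXC5 too) have 1 window each, and HOXA3 is shown at the outermost of 7 (chr7:27152584-27152833, minus strand). This HOXA3 window lies beyond HOXA4, HOXA5 and HOXA6 and not beside HOXA2. Which HOXA3 start these cells use was not tested. Capitals mark the motifs found on either strand, which are CCAAT (read ATTGG on the other strand), TATAAA (read TTTATA) and TGATNNAT, the joint site of a HOX and a PBX protein.
HOXA2: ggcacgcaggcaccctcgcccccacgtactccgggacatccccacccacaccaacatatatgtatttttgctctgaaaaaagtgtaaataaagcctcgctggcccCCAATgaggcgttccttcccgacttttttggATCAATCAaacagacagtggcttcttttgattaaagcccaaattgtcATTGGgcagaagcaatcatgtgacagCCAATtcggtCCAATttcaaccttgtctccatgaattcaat
HOXA3: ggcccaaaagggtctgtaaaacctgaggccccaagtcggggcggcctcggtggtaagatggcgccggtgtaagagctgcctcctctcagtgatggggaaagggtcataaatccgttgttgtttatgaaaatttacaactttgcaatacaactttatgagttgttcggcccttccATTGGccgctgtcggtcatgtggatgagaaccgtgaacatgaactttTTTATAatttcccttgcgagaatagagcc
HOXC4: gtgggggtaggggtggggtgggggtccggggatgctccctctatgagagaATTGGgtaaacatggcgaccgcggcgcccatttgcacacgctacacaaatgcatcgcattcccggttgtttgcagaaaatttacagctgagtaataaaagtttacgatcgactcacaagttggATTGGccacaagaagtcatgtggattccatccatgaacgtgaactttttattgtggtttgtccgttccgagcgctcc
HOXA2 held CCAAT 4 times and TGATNNAT once, HOXA3 held CCAAT once and TATAAA once, and HOXC4 held CCAAT in 2 places. The HOXA3 and HOXC4 stretches also shared the run gaaaatttaca, of 11 bases, while the longest run shared with HOXA2 was 8 bases. Over the full RefSeq windows of 300 bases, CCAAT was in 18 of 27 HOX windows and in 34.6% of 35116 windows of all genes. TGATNNAT was in 3 of 27 and in 7.4%, and TATAAA in 5 of 27 and in 11.5%. The repeat unit AGGTCA of retinoic acid receptor sites was in 0 of 27 and in 13.8%. The p53 response element was in 0 of 27 and in 0.0285%. It is so rare in such windows that 0 of 27 tells nothing about HOX genes. HOX windows had a median of 22 CpG against 14. A motif match is a description of the letters and not a binding site.

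The effect of the compounds was then followed in irradiated cells. Both are compared with the same 3 irradiated DMSO libraries, so their values stand side by side and are not independent, and the compounds are not compared with each other. The HOXA total was lower with either compound and, on TMM scaling, the HOXB total was higher. HOXA counts summed to 38.3 ± 1.54 CPM in irradiated DMSO cells, 22.8 ± 0.622 CPM in RG7388 and 22.2 ± 0.862 CPM in HDM201, and the libraries did not overlap, at 36.9 to 40.0, 22.4 to 23.6 and 21.3 to 23.0 CPM. Most of this fall lay in HOXA5, with means of 22.7, 11.0 and 11.1 CPM. HOXB counts summed to 270.5 ± 14.5, 322.9 ± 10.0 and 320.6 ± 3.35 CPM. The TMM factors were 1.143 to 1.185 in irradiated DMSO libraries, 1.01 to 1.021 with RG7388 and 1.032 to 1.062 with HDM201. Scaled by library totals the HOXB difference was smaller, and the RG7388 libraries overlapped the DMSO ones. The share of HOX counts from HOXB was 84.2 to 86.0% in irradiated DMSO libraries and 90.8 to 91.5% with compound. By gene, 5 of 19 members (26.3%) passed with RG7388, against 22.8% of all genes, with 2 higher (10.9% of all genes) and 3 lower (11.9%). With HDM201 5 passed, against 21.3%, with 2 higher (9.96%) and 3 lower (11.3%). HOXB9 is among the 3 lower, and with a minimum of 1 CPM in 3 libraries, which removes it, 4 members were called, 2 of them higher. The libraries did not overlap for 7 members with RG7388 and 8 with HDM201, beside 44.3% and 36.2% of all genes. Both counts of members include HOXB9, which passed the filter on low counts through the irradiated DMSO libraries. With library totals the median of all genes moved from -0.035 to -0.222 for RG7388 and from -0.023 to -0.169 for HDM201, and the calls became 4 lower and 0 higher for each. The falls of HOXA5 and HOXA3 were called under both scalings, and no rise was.

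HOXA5, which directs branching and maturation of the lung, had the smallest p of any member with either compound. It was at 27.6, 21.0 and 19.4 CPM in irradiated DMSO libraries, at 11.1, 11.4 and 10.5 CPM with RG7388 and at 10.8, 11.8 and 10.8 CPM with HDM201. The 6 treated libraries were tightly grouped and lay well under all 3 untreated ones. The log2 change was -1.05 ± 0.14 (2.06-fold lower, adjusted p = 4.13e-06) for RG7388 and -1.03 ± 0.14 (2.04-fold lower, adjusted p = 7.23e-06) for HDM201. Without irradiated DMSO replicate 1, the highest library, both changes stayed at or below -0.86 and were called. HOXA5 shares no exon bases with another annotated gene.

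HOXA3 was at 3.61, 6.585 and 8.05 CPM in irradiated DMSO libraries, at 3.48, 3.28 and 3.27 CPM with RG7388 and at 3.54, 3.12 and 3.465 CPM with HDM201. Every treated library was below every untreated one, though by little below replicate 1. The log2 changes were -0.85 ± 0.19 (adjusted p = 0.00212) and -0.83 ± 0.20 (adjusted p = 0.00343), and ran from -1.12 to -0.60 and from -1.10 to -0.58 with each library left out. HOXA3 lay 10.6% under HOXA-AS2 and 6.7% under HOXA-AS3 on the other strand, and without a stated strand setting those reads cannot be told apart. HOXA2 was at 1.72, 2.26 and 1.99 CPM, then at 0.996, 1.33 and 0.882 CPM with RG7388 and 1.52, 1.32 and 0.3998 CPM with HDM201. Neither treated group overlapped the untreated one. RG7388 gave -0.91 ± 0.31 (adjusted p = 0.0392), lost without irradiated DMSO replicate 2 (0.118) or 3 (0.0746) or irradiated RG7388 replicate 1 (0.131) or 3 (0.146). HDM201 gave -0.80 ± 0.32 (adjusted p = 0.0789), which passed without irradiated HDM201 replicate 1 (-1.20, adjusted p = 0.0316).

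**Figure D4:**
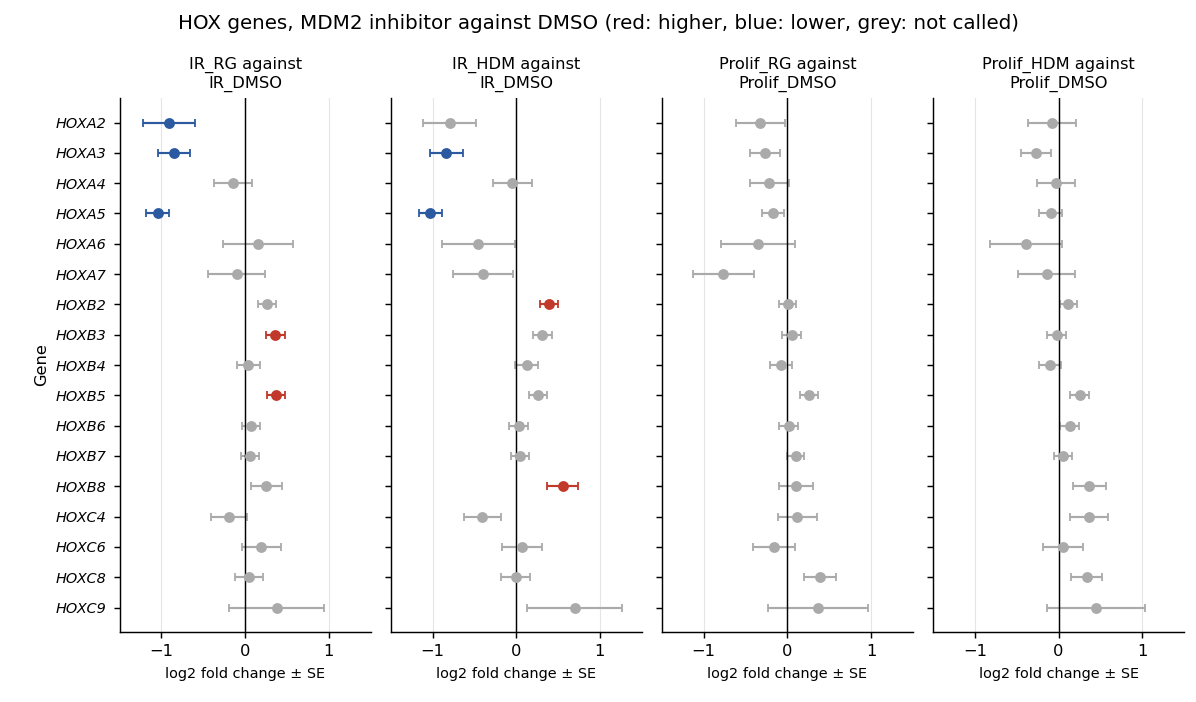
Log2 change with each compound (± SE) against DMSO in irradiated and in proliferating cells for 17 of the tested HOX genes; HOXB9 is left out because 1 group had no counts. HOXA5 lies furthest below 0 in irradiated cells with both compounds, HOXA2 and HOXA3 also lie below 0, and no gene passed the test in proliferating cells.

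HOXB5, HOXB3, HOXB2 and HOXB8 were each called higher with 1 of the compounds, by smaller amounts. HOXB5 was at 61.8, 63.7 and 66.2 CPM in irradiated DMSO libraries, at 80.9, 81.9 and 84.5 CPM with RG7388 and at 75.6, 77.1 and 77.8 CPM with HDM201. All treated libraries were above all untreated ones. The log2 change was 0.37 ± 0.11 for RG7388 (adjusted p = 0.0157) and 0.27 for HDM201 (adjusted p = 0.0840). The RG7388 call was lost without irradiated DMSO replicate 2 (0.0534) or irradiated RG7388 replicate 2 (0.0534) or 3 (0.0585), and with library totals (0.110). HOXB3 was at 56.1, 71.2 and 80.8 CPM, then at 88.0, 90.0 and 89.0 CPM with RG7388 and 90.9, 78.2 and 88.8 CPM with HDM201. The RG7388 groups did not overlap but the HDM201 groups did. RG7388 gave 0.36 ± 0.11 (adjusted p = 0.0238), which was 0.24 (adjusted p = 0.143) without irradiated DMSO replicate 1 and was also lost without irradiated RG7388 replicate 1 (0.0634), 2 (0.0736) or 3 (0.0632). HDM201 gave 0.31 (adjusted p = 0.0537), which passed without irradiated DMSO replicate 3 (0.43, adjusted p = 0.0172) or irradiated HDM201 replicate 2 (0.38, adjusted p = 0.0453).

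HOXB2 was at 51.4, 45.0 and 51.0 CPM in irradiated DMSO libraries, at 54.5, 57.3 and 64.8 CPM with RG7388 and at 63.2, 68.1 and 61.8 CPM with HDM201, with no overlap for either. HDM201 gave 0.39 ± 0.11 (adjusted p = 0.0101), lost without irradiated DMSO replicate 2 (0.0713) and with library totals (0.0548). RG7388 gave 0.26 (adjusted p = 0.0785). HOXB8 was at 6.42, 5.29 and 5.36 CPM, then at 5.88, 7.33 and 7.23 CPM with RG7388 and 6.89, 9.93 and 8.49 CPM with HDM201. Only the HDM201 libraries were all above the untreated ones, and the change of 0.55 ± 0.18 (adjusted p = 0.0329) was lost without irradiated DMSO replicate 2 (0.107) or 3 (0.102) or irradiated HDM201 replicate 2 (0.155) or 3 (0.0819). HOXB4, which had fallen with irradiation, was at 11.0, 13.5 and 14.9 CPM in DMSO, 13.3, 13.9 and 13.2 CPM in RG7388 and 13.4, 14.2 and 15.4 CPM in HDM201, and HOXC8 at 4.51, 3.21 and 3.93, then 3.62, 3.96 and 4.49, then 3.63, 3.82 and 4.22 CPM. Both genes overlapped between treated and untreated libraries.

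HOXB9, a thoracic and mammary patterning gene, was the least abundant member tested. It had 14, 17 and 15 counts in the irradiated DMSO libraries, 5, 1 and 4 with RG7388 and none in the 3 HDM201 libraries. Taking 3 counts over those libraries as the floor, the HDM201 level was at least 13.7-fold lower than in irradiated DMSO cells. HOXB9 passed the filter on low counts through the irradiated DMSO libraries, the group it is compared with, so its call with HDM201 supports nothing further and these values are a description. In proliferating cells HOXB9 had 18 counts over the DMSO libraries, 13 with RG7388 and 5 with HDM201, so the values are at the limit of detection throughout.

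In proliferating cells no HOX gene was called with either compound by edgeR, DESeq2 or limma. Of all genes, edgeR called 1.54% with RG7388 and 0.7% with HDM201. An unadjusted p under 0.05 was found for 2 of 19 members with RG7388, beside 13.1% of all genes, and for 1 of 19 with HDM201, beside 10.3%. Libraries did not overlap for 5 and 2 members, beside 25.8% and 13.0% of all genes. The member with the smallest p was HOXB5 each time. It was at 55.2, 60.9 and 54.8 CPM with DMSO, at 66.9, 73.6 and 63.9 CPM with RG7388 and at 78.8, 69.9 and 54.9 CPM with HDM201. RG7388 libraries were all above the DMSO ones, while HDM201 replicate 3, which stood apart, was level with them. The log2 changes were 0.26 ± 0.11 (adjusted p = 0.305) and 0.25 ± 0.11 (adjusted p = 0.411). Without that library the HDM201 change was 0.39 (adjusted p = 0.0111), and without both that stood apart the RG7388 change was 0.26 with adjusted p = 0.0334. Leaving both out also raised the calls among all genes, from 279 to 1436 with RG7388 and from 127 to 2833 with HDM201. HOXC8 was at 2.26, 2.03 and 1.97 CPM, then 2.98, 2.69 and 2.58 CPM and 2.92, 2.97 and 2.13 CPM, with log2 changes of 0.39 (adjusted p = 0.390) and 0.34 (adjusted p = 0.579). HOXB8 with HDM201 was at 3.56, 5.07 and 2.83 CPM against 3.10, 2.76 and 2.84 CPM, and gave 0.37 (adjusted p = 0.557), or 0.56 (adjusted p = 0.0488) without both libraries that stood apart. HOXA7, 62.5% of whose exon bases lie under HOXA-AS3 on the other strand, was at 1.48, 0.819 and 1.31 CPM with DMSO and at 0.811, 0.662 and 0.702 CPM with RG7388 (log2 change -0.77, adjusted p = 0.375).

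Whether a compound acted differently in the 2 states was tested as an interaction. The treatment length of proliferating cells is not stated, so state and treatment schedule cannot be told apart in this test. HOXA5 was the 1 member of 19 called for RG7388, beside 7.47% of all genes (5.27% lower), and the 1 called for HDM201, beside 8.64% (5.67% lower). In proliferating cells HOXA5 was at 17.9, 21.9 and 20.0 CPM with DMSO, 16.1, 19.9 and 16.9 CPM with RG7388 and 20.2, 19.5 and 16.3 CPM with HDM201. These groups overlapped, with log2 changes of -0.17 (adjusted p = 0.651) and -0.10 (adjusted p = 0.872). The difference between states was -0.87 ± 0.19 for RG7388 (adjusted p = 0.00440) and -0.93 ± 0.19 for HDM201 (adjusted p = 0.00245). With each library left out it ran from -0.98 to -0.70 and from -1.04 to -0.76 and was called each time. HOXA3 did not pass, with -0.59 (adjusted p = 0.216) and -0.57 (adjusted p = 0.211). Without irradiated DMSO replicate 1, the low library that stood apart, HOXA3 did pass, at -0.86 (adjusted p = 0.00392) and -0.83 (adjusted p = 0.00523). HOXB3 gave 0.31 (adjusted p = 0.308) and 0.33 (adjusted p = 0.227). HOXC4 gave -0.77 for HDM201 (adjusted p = 0.148), or -0.91 (adjusted p = 0.0488) with library totals.

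The noncoding neighbours of the HOX genes were read next. Of 26 listed transcripts found, 6 were tested. HOXB-AS3, which lies antisense to the middle of HOXB, rose with irradiation from 9.26 ± 0.559 to 20.0 ± 4.35 CPM (log2 change 1.11 ± 0.16, adjusted p = 2.70e-06), the 1 call of 6 (16.7%, beside 51.6% of all genes). In irradiated cells it was at 27.9 CPM with RG7388 (0.48, adjusted p = 0.0242) and 30.2 CPM with HDM201 (0.59, adjusted p = 0.00690). The RG7388 call was lost with library totals (0.188), without irradiated DMSO replicate 2 (0.0978) or 3 (0.133) and without irradiated RG7388 replicate 3 (0.127), and the HDM201 call without irradiated DMSO replicate 3 (0.0519). HOXA-AS2, which starts beside HOXA3, was lower with either compound in irradiated cells, at 7.24 CPM in DMSO against 4.73 and 4.51 CPM (-0.62, adjusted p = 0.00595, and -0.69, adjusted p = 0.00327). For RG7388 this was lost without irradiated RG7388 replicate 1 (0.0602). Because strand is not stated, reads of HOXA-AS2 and of the part of HOXA3 under it cannot be told apart. HOTAIRM1 (0.16, adjusted p = 0.375), HOXB-AS2 (-0.39, adjusted p = 0.377) and HOXA-AS3 (0.38, adjusted p = 0.515) did not pass with irradiation.

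**Figure D5:**
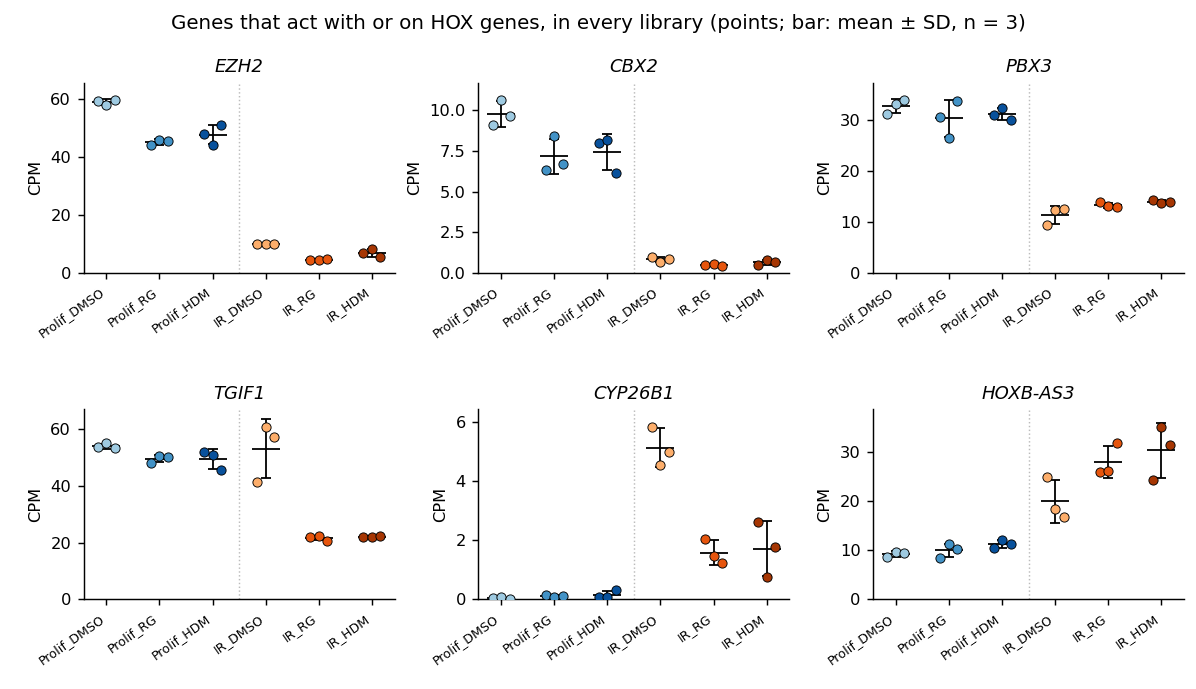
Level (TMM-scaled CPM) in each of the 18 libraries, with group means and SD, of the Polycomb genes EZH2 and CBX2, the TALE genes PBX3 and TGIF1, the retinoic acid degrading enzyme CYP26B1 and the antisense transcript HOXB-AS3. EZH2, CBX2 and PBX3 are low in all irradiated libraries, while TGIF1 and CYP26B1 are lower in irradiated libraries with compound than in irradiated DMSO libraries.

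The lists that follow are read beside all genes tested, of which 51.6% were called with irradiation (26.3% higher, 25.3% lower), 22.8% with RG7388 and 21.3% with HDM201 in irradiated cells. TALE genes include the DNA-binding partners of HOX proteins, and the list also holds TGIF1 and TGIF2. Of 11 tested, 7 (63.6%) were lower and none higher with irradiation, also with any 1 library left out (with library totals, 6 and 2). The median log2 change was -0.656 where that of all genes was 0.053. PBX3 fell from 32.8 ± 1.4 to 11.4 ± 1.76 CPM (log2 change -1.53, adjusted p = 2.52e-10) and MEIS2 from 28.1 to 11.7 CPM (-1.27, adjusted p = 9.81e-09), and TGIF2 (-1.14, adjusted p = 1.46e-07) and PKNOX1 (-0.82, adjusted p = 4.0e-06) fell too. In irradiated cells 2 of 11 were lower and 1 higher with each compound, a share of 27.3% (with library totals, 3 lower and none higher). Without irradiated DMSO replicate 1 these became 3 lower with RG7388 and 4 with HDM201, and none higher, and with any 1 library left out 0 to 2 and 0 to 1 were higher. TGIF1, a repressor that competes for TALE sites, went from 53.02 ± 10.4 to 21.6 and 22.0 CPM (-1.30, adjusted p = 1.60e-08, and -1.27, adjusted p = 3.13e-08).

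Of 11 genes of Polycomb repressive complex 2, which silences HOX loci by methylating H3K27, 7 were lower and 2 higher with irradiation, 81.8% in all (with library totals, 4 and 3), with a median of -0.415. Without proliferating DMSO replicate 1 there was 1 higher. EZH2, the methyltransferase, fell from 59.0 ± 0.957 to 9.87 ± 0.152 CPM (log2 change -2.58, adjusted p = 2.20e-14), and PHF19, a targeting subunit, fell by 2.18 on the log2 scale (adjusted p = 1.01e-13). EZH2 is also known to follow the cell cycle. RBBP7 (-0.72, adjusted p = 3.94e-07) and JARID2 (-0.69, adjusted p = 1.68e-05) fell less. EZH2 was lower again with RG7388 (4.51 ± 0.266 CPM, -1.13, adjusted p = 2.26e-07) and with HDM201 (6.89 ± 1.38 CPM, -0.52, adjusted p = 0.00303, or 0.0515 in a fit of those groups alone). For RG7388 5 of 11 (45.5%) were lower and for HDM201 3 of 11 (27.3%), none higher, and with library totals 7 and 6. The RG7388 count was 2 to 3 without any 1 of its 6 libraries. The HDM201 count was 1 without irradiated HDM201 replicate 3 and 2 without any other library of the comparison.

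Of 20 genes of Polycomb repressive complex 1, 4 were higher and 8 lower with irradiation, 60.0% in all (with library totals, 7 and 6), with a median of -0.122. With any 1 library left out the higher ones were 2 to 3 and the lower ones 7 to 8. The higher ones were 2 without irradiated DMSO replicate 1 or proliferating DMSO replicate 2 or 3. CBX2, which reads H3K27 methylation, fell from 9.80 to 0.821 CPM (-3.56, adjusted p = 7.43e-13), while its relative CBX7 rose from 2.53 to 7.62 CPM (1.58, adjusted p = 2.76e-07). KDM2B (-1.22, adjusted p = 5.45e-10) and SCMH1 (-1.19, adjusted p = 3.59e-08) fell. With the compounds 3 were higher and 1 lower for RG7388 (20.0%) and 1 higher for HDM201 (5.0%), which turned to 3 and 5 lower and none higher with library totals. With any 1 library left out there were 0 to 2 higher and 0 to 1 lower for RG7388, and 0 to 1 each for HDM201. Of 15 genes listed as trithorax group or H3K27 demethylase genes, with CTCF among them, 10 were lower and 1 higher with irradiation. This was 73.3% in all (with library totals, 6 and 2), with a median of -0.499. With 1 library left out 8 to 10 were lower, and none was higher without any 1 of the proliferating DMSO libraries. DOT1L, an H3K79 methyltransferase, fell from 74.1 to 17.6 CPM (-2.07, adjusted p = 9.66e-13), and CTCF, which forms boundaries inside HOX clusters, by 1.45 on the log2 scale (adjusted p = 1.39e-10). WDR5 (-1.11, adjusted p = 1.06e-07) and PSIP1 (-1.44, adjusted p = 3.66e-07) fell as well. KDM6B, an H3K27 demethylase, was lower with RG7388 (-0.49, adjusted p = 0.00665) and HDM201 (-0.68, adjusted p = 0.000463), in a list with 1 higher and 1 lower for each, or 13.3% (with library totals, none higher and 3 and 6 lower). Without irradiated DMSO replicate 1 the lower ones were 3 and 4.

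Of 13 retinoic acid genes tested, 6 were higher and 5 lower with irradiation, 84.6% in all (with library totals, 7 and 2), with a median of -0.015. With any 1 library left out, 5 were higher and 3 to 5 lower, with 3 lower without irradiated DMSO replicate 2 or proliferating DMSO replicate 1. RDH10, which makes the retinoic acid precursor, rose from 29.9 to 163.7 CPM (2.45, adjusted p = 2.16e-14). CYP26B1, which degrades retinoic acid, rose from 0.0584 to 5.12 CPM (6.43, adjusted p = 2.96e-10), and DHRS3, which returns retinal to retinol, rose from 11.8 to 35.5 CPM (1.60, adjusted p = 8.04e-10). In irradiated cells 4 of 13 (30.8%) were lower and none higher with each compound, also with any 1 library left out (with library totals, 6 and 4 lower), with DHRS3 at 19.1 CPM in RG7388 (-0.89, adjusted p = 1.73e-05) and 17.6 CPM in HDM201 (-1.02, adjusted p = 4.15e-06). ALDH1A3, which makes retinoic acid, gave -0.82 (adjusted p = 9.19e-05) and -0.80 (adjusted p = 0.000164), and CYP26B1 stood at 1.58 and 1.71 CPM. HOXA5 and HOXA3 were lower in these same libraries, and whether the retinoic acid genes had a part in that was not tested.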

How the data were processed

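RNA of 18 libraries from IMR90 cells was analysed in 6 groups of 3, with groups and replicate numbers from the labels. The deposited counts are whole reads per gene, made by the authors with STAR and HTSeq on hg38. The deposited FPKM values were made by the authors with Cufflinks and served for levels between genes and in alternatives on the log2 scale. For the versions of these tools, the annotation release and the strand setting, the sources used here give nothing. The authors tested with DESeq2.

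Of 60668 rows, 45 pseudoautosomal copies were left out. Gene IDs matched GENCODE release 44 for 60295 genes (99.39%). Counts were fitted with edgeR 4.0.16 (R 4.3.3) after filterByExpr by group, which kept 18151 genes, and TMM scaling, with a robust quasi-likelihood model of 1 mean per group (12 residual degrees of freedom). Calls required an adjusted p under 0.05 (Benjamini-Hochberg over all genes tested). Standard errors are the absolute log2 change over the root of the F statistic. Alternatives used DESeq2 1.42.0, limma 3.58.1 on log2(FPKM + 1) and log2(FPKM + 0.1), library totals, other filters, a replicate block and libraries left out. The fit was tested on simulated data with known changes. Library totals of 21609198 to 66647700 counts set the precision, and members under 1 CPM rest on few counts. Values in every library are given for the members with the smallest p, up to 14 for irradiation in DMSO, 6 for each compound in irradiated cells, 3 for each in proliferating cells and 3 for each interaction, among members whose mean reached 1 CPM in some group. Some genes that this rule names are not reported here. HOXB9 was named for its count of 0, after its values were seen. Of each other list, up to 4 genes were named for irradiation and 2 per compound. The members and lists were chosen with earlier results of these data known.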

Additional observations from a re-analysis of the deposited data

Results flagged for a closer look

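HOXA5 was the member whose response to the compounds differed between the states by a test of the difference itself. For RG7388 the log2 change in irradiated cells minus that in proliferating cells was -0.87 (edgeR, adjusted p = 0.00440), from -1.05 and -0.17. For HDM201 it was -0.93 (adjusted p = 0.00245), from -1.03 and -0.10. The 2 differences share the DMSO libraries of both states. State and treatment schedule cannot be told apart in them, since the treatment length of proliferating cells is not stated. Groups of 3 libraries were too small to look for single outlying values by Dixon's criterion.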

How the results depend on the processing

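Each count of HOX calls and each named member was recomputed under the alternatives. Of these values, 3177 stayed on their side of the threshold, 156 were no longer called and 41 became called. The sign of a change that was not called could differ between scales. With irradiation in DMSO the mean of HOXA7 went from 1.204 to 1.082 CPM, but from 1.433 to 2.261 FPKM. With an adjusted p under 0.01, 5 members were called for irradiation in DMSO, 2 for RG7388 and 3 for HDM201 in irradiated cells, and 5 for irradiation in RG7388. With a 2-fold minimum these counts were 1, 1, 2 and 3, irradiation in HDM201 had 3, and each interaction had 0. By limma on log2 FPKM with either pseudocount, 2 were called for RG7388 and 3 for HDM201 in irradiated cells. With no filter on low counts 5 were called for irradiation in RG7388. With library totals 2 were called for HDM201 by state. Without both libraries that stood apart, 1 was called for RG7388 and 2 for HDM201 in proliferating cells, and 2 for each interaction. Leaving both out also raised the calls among all genes. In proliferating cells these went from 279 to 1436 with RG7388 and from 127 to 2833 with HDM201. For the interactions they went from 1356 to 2204 with RG7388 and from 1568 to 3321 with HDM201. With 1 library left out, the counts ran from 6 to 8 for irradiation in DMSO, 2 to 4 for RG7388 and 3 to 6 for HDM201 in irradiated cells, 0 to 0 for RG7388 and 0 to 1 for HDM201 in proliferating cells, 5 to 7 for irradiation in RG7388, 6 to 8 for irradiation in HDM201 and 1 to 2 for each interaction. The cause of these changes was not tested, beyond the fewer samples or the stricter threshold itself. Members under 1 CPM are limited by depth.

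No clear pairing by replicate number was seen: 9 of 45 same-number pairs had a residual correlation over 0.1, and 8 of 18 libraries correlated best with their own number. The share among pairs of different number is not given, so these figures do not settle whether the numbers mark pairs. A replicate block gave 8 calls for irradiation in DMSO, 5 and 6 for RG7388 and HDM201 in irradiated cells, 0 for each in proliferating cells, 8 and 7 for irradiation in RG7388 and HDM201 and 1 for each interaction. HOXC4 in DMSO (0.55, adjusted p = 0.0501) and HOXB2 in HDM201 (-0.26, adjusted p = 0.0528) were no longer called with irradiation, and HOXA2 was called with HDM201 in irradiated cells (-0.85, adjusted p = 0.0391).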

Other observations

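Other transcription factors that mark position in mesenchyme were read beside the HOX genes. Of 64 listed, 31 were tested, and 6 were higher and 14 lower with irradiation in DMSO (10 and 13 with library totals), 64.5% of the list beside 51.6% of all genes. With 1 library left out these were 2 to 5 higher and 13 to 14 lower, with 3 higher without irradiated DMSO replicate 1 and 2 without proliferating DMSO replicate 3. TCF21, a lung and kidney mesenchyme factor, rose from 9.59 to 92.0 CPM (edgeR log2 change 3.26, adjusted p = 8.85e-16). PRRX1, which marks limb mesenchyme, fell by 2.11 on the log2 scale (adjusted p = 3.14e-11), FOXC2 by 2.33 (adjusted p = 5.31e-11) and TWIST1 by 1.80 (adjusted p = 6.47e-10). In irradiated cells 4 were higher and 10 lower with RG7388 and 4 higher and 11 lower with HDM201 (3 and 13, and 4 and 13, with library totals), 45.2% and 48.4% of the list beside 22.8% and 21.3% of all genes. With 1 library left out there were 3 to 4 higher and 9 to 11 lower with RG7388, and 4 to 5 higher and 7 to 12 lower with HDM201, the 7 without irradiated HDM201 replicate 3. TCF21 was at 31.9 CPM with RG7388 (-1.53, adjusted p = 7.64e-10) and 31.1 CPM with HDM201 (-1.56, adjusted p = 7.93e-10). The compound comparisons share the irradiated DMSO libraries.

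The ratio of CPM (here scaled by library totals) to FPKM gives an apparent length for each gene. Counts are from HTSeq and FPKM from Cufflinks, so this is not a measured length. It was compared with the exon length in the annotation. It came to 96.9% for HOXA5, 107.8% for HOXB4, 111.1% for HOXB5 and 102.6% for HOXC8, but to 28.5% for HOXA7, 41.7% for HOXA4, 44.7% for HOXB3, 50.1% for HOXC6 and 59.9% for HOXA3. The share of exon bases that no other annotated gene overlaps was 37.5% for HOXA7, 52.2% for HOXA4, 88.3% for HOXB3, 83.9% for HOXC6 and 80.2% for HOXA3. The apparent length did not follow this share throughout. HOXA6 came to 112.5% with 59.9% of its exon bases unshared, and HOXB2 to 63.8% with 96.5% unshared.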
